A study of Mus musculus with 25 samples.

Results

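The autosomal genes with noncanonical, H3K27me3-dependent imprinting were examined in mouse 2-cell embryos made by in vitro fertilization (IVF) or by somatic cell nuclear transfer (SCNT). The group was set as a list of 7 symbols, Sfmbt2, Gab1, Slc38a4, Smoc1, Jade1, Rnls and Sall3, each matched to its Ensembl identifier. All 7 were found among the 55375 genes of the count table and all 7 passed the filter of a mean of at least 1 read pair per library, which left 25794 autosomal genes for testing. The question was whether removal of H3K9 methylation or inhibition of histone deacetylases returned these genes to the level of IVF embryos.

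Polycomb repressive complex 2 places the H3K27me3 mark on histone H3, and in growing oocytes it marks a set of genes that escape DNA methylation. After fertilization this maternal mark keeps the maternal allele silent, so that the embryo and later the placenta express the paternal allele. Cumulus cells do not carry the oocyte pattern, and loss of this imprint is a known trait of cloned mouse embryos and of the enlarged placentas of clones. The counts carried no allele information, so the level of each gene could be read but not its imprint, and in pools of embryos fewer expressing cells and less RNA per cell cannot be told apart.

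Each library came from a pool of 5 to 10 wild-type 2-cell embryos collected 28 to 29 h after insemination or activation, and nothing in the labels marks separate cultures or days, so that p-values measure only the spread between libraries. IVF embryos (4 libraries) came from C57BL/6N oocytes, and DBA2 sperm, as the labels name the strains. The labels give the oocyte donors an age of 4 to 20 weeks, and the methods of the study give another, narrower range. All SCNT embryos came from oocytes of BDF1 females, the hybrid of C57BL/6N and DBA2, and nuclei of BDF1 female cumulus cells, so that the method of making the embryo and the strain of the oocyte cannot be told apart. SCNT embryos activated in cytochalasin B (CCB) were left without mRNA (SCNT control, 2 libraries) or injected with 10 pL of Kdm3a mRNA (SCNT-Kdm3a, 2 libraries) or Kdm4d mRNA (SCNT-Kdm4d, 2 libraries) at 1500 ng per µL. KDM3A removes methyl groups from H3K9me1 and H3K9me2, and KDM4D from H3K9me2 and H3K9me3. SCNT embryos of the chemical arm, treated with latrunculin A (LatA), which like CCB blocks actin assembly, were left without further agents (CC control, 2 libraries), given 25 nM trichostatin A (TSA, an inhibitor of histone deacetylases) for 8 h (CC_T, 2 libraries) or given an inhibitor of the H3K9 methyltransferase G9a at 1 µM for 24 h. The inhibitors were A366 (CC_G-A366, 2 libraries) and RK-701, written R701 in the labels (CC_G-RK701, 3 libraries). TSA was combined with A366 (CC_TG-A366), with RK-701 (CC_TG-RK701) or with UNC0638 (CC_TG-UNC0638), with 2 libraries each.

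The 25 libraries held 6662727 to 21188688 read pairs on genes, with a median of 13994840. The injected mRNAs were seen where the labels place them, with Kdm3a at 3290 CPM (counts scaled to the size of the library) on average in SCNT-Kdm3a against 203 in the SCNT control, and Kdm4d at 15541 against 1.62. All 7 markers of the 2-cell stage had reads in every group, with summed levels of 251 to 1912 CPM. Zscan4c, Zscan4d and Usp17le were called below IVF embryos (limits given below) in both controls, CC_T, CC_G-A366, CC_G-RK701, CC_TG-A366 and CC_TG-RK701. Zfp352 and Gm5662 were also called below them in CC_TG-A366. In SCNT-Kdm4d, Zscan4d alone was called below them, at 65.4 CPM. Zscan4d was at 178 CPM in IVF embryos, 8.17 in the SCNT control and 8.02 in the CC control. SCNT-Kdm3a and CC_TG-UNC0638 had markers called above IVF embryos and none below. The 13 cumulus markers summed to 6.29 to 21.8 CPM over all libraries. In IVF embryos, which contain no donor cell, the sum was 13.0 to 19.7 CPM. Ptx3 and Inha were each at 0 in IVF embryos and in 7 of the 10 SCNT groups. Amh and Fshr were also at 0 in IVF embryos but had reads in most SCNT groups. Amh had none in SCNT-Kdm3a, SCNT-Kdm4d and CC_G-RK701, and Fshr had none in CC_T and CC_TG-UNC0638. Inhba, at 0 CPM in IVF embryos, was called above them in the SCNT control, CC_T, SCNT-Kdm4d, CC_G-A366 and CC_TG-RK701. Its means in those groups were 0.467 to 0.840 CPM. Tnfaip6 was called below IVF embryos in SCNT-Kdm3a, CC_G-RK701 and CC_TG-RK701. The 6 oocyte markers in the table summed to 1218 to 1404 CPM in IVF embryos, 549 to 606 in the SCNT control and 444 to 573 in the CC control. Among treated groups they were highest in CC_G-RK701 (977 to 1204 CPM) and SCNT-Kdm4d (887 to 1030 CPM), above every library of either control. The other 6 lay between 463 and 754 CPM, and of these SCNT-Kdm3a (611 to 754 CPM) was also above every control library. The part of these differences in the results for the imprinted genes was not tested.

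The DNA just before the transcription start is shown for the 4 members with an entry among the RefSeq starts used. Smoc1, Rnls and Sall3 had no entry there. CpG content at the start is the sequence feature by which promoters open to DNA methylation and those bound by Polycomb complexes are commonly described. Each line gives the 250 bases before a RefSeq start (GRCm38.p6), 5′ to 3′ on the strand of the gene, with every CpG in capitals.
Sfmbt2, chr2:10370201-10370450, plus strand: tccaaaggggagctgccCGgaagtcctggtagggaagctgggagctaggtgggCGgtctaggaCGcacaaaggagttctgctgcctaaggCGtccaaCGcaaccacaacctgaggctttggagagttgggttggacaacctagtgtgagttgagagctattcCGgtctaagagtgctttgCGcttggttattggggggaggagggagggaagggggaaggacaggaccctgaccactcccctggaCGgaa
Gab1, chr8:80880520-80880769, minus strand: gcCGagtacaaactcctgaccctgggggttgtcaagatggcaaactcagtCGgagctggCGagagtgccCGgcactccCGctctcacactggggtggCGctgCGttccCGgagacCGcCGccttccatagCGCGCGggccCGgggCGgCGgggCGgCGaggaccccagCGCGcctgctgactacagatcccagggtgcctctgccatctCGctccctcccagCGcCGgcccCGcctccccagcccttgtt
Slc38a4, chr15:97055957-97056206, minus strand: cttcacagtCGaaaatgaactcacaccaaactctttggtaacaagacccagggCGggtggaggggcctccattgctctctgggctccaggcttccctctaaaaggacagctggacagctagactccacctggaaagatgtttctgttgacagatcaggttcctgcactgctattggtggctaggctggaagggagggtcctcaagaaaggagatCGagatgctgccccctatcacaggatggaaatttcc
Jade1, chr3:41555484-41555733, plus strand: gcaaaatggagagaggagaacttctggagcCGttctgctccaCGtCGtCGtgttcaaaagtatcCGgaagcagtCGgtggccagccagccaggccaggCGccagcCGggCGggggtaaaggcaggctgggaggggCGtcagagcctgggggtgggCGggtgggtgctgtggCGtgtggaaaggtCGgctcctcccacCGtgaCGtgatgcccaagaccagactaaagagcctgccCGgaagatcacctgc

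The RefSeq starts number 2 each for Sfmbt2 and Gab1, 3 for Slc38a4 and 4 for Jade1. For each gene the start nearest to the gene start in the count table was used, and the windows of the other starts are not described. The 4 windows differ widely in CpG content. Gab1 holds 24 CpG at 70.8% G and C, and 12.0% of the 32851 RefSeq windows of this length hold as many. Jade1 follows with 16 CpG (25.4% of windows hold as many) and Sfmbt2 with 8 (43.0%), while Slc38a4 holds 3 at 52.8% G and C (71.0%), below the median of 6 over all windows. At least 1 CpG is present in 92.1% of all windows, counted on either strand since CG reads the same on both. The windows of Gab1 and Slc38a4 end at the gene start given in the count table, that of Sfmbt2 ends 59 bases before it and that of Jade1 runs 3 bases past it.

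The members lie on 7 chromosomes of mm10: Sfmbt2 (ENSMUSG00000061186.15) on chromosome 2 from 10370510 to 10595253, Gab1 (ENSMUSG00000031714.9) on chromosome 8 from 80764438 to 80880519, Slc38a4 (ENSMUSG00000022464.14) on chromosome 15 from 96994820 to 97055956, Smoc1 (ENSMUSG00000021136.13) on chromosome 12 from 81026808 to 81186414, Jade1 (ENSMUSG00000025764.14) on chromosome 3 from 41555731 to 41616864, Rnls (ENSMUSG00000071573.14) on chromosome 19 from 33137747 to 33392295 and Sall3 (ENSMUSG00000024565.10) on chromosome 18 from 80966376 to 80986771. Read pairs were counted on exons without regard to strand, and Sfmbt2, Gab1, Jade1 and Rnls overlap genes of the other strand (Gm13261, Gm31105 and Gm7997, Gm31266, and Mir3970), so their reads cannot be fully separated from those of their partners.

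Per kilobase of exon, the mean level over all 25 libraries was highest for Jade1 at 12.2 CPM per kb, followed by Gab1 at 7.36, Slc38a4 at 2.15 and Sfmbt2 at 1.94 CPM per kb. Rnls at 0.349, Smoc1 at 0.154 and Sall3 at 0.0318 CPM per kb were sparsely counted, with at most 38 read pairs in any library. Levels below are CPM after TMM scaling, which compare a gene with itself between libraries. A gene was called changed at an adjusted p under 0.05 in the edgeR quasi-likelihood test over all 25794 genes together with a fold over 2.

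In untreated SCNT embryos, Sfmbt2 and Slc38a4 stood above IVF embryos in both controls, and these were the only members called. That is 2 of 7 members in the SCNT control, where 15.0% of all tested genes were called in either direction, and 2 of 7 in the CC control, where 15.3% were. The median log2 fold change of the 7 members was 0.85 in the SCNT control and 0.94 in the CC control, against 0.01 and 0.04 over all tested genes. Both member medians are the value of Gab1. The fitted differences of the sparsely counted Rnls and Sall3 were negative in both controls and not called. Gab1 passed the test in both controls with a fold under 2, and Jade1 was 1.36-fold and 1.23-fold above IVF embryos, which was not called. None of the 7 members was called between the controls in edgeR, where none had an unadjusted p under 0.05 and 0.0116% of all genes were called. None was called in DESeq2 either, which gave an adjusted p for 4 of the 7. All comparisons of treated groups with IVF embryos share the same 4 IVF libraries, and those with a control share that control's 2 libraries.

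**Figure D1:**
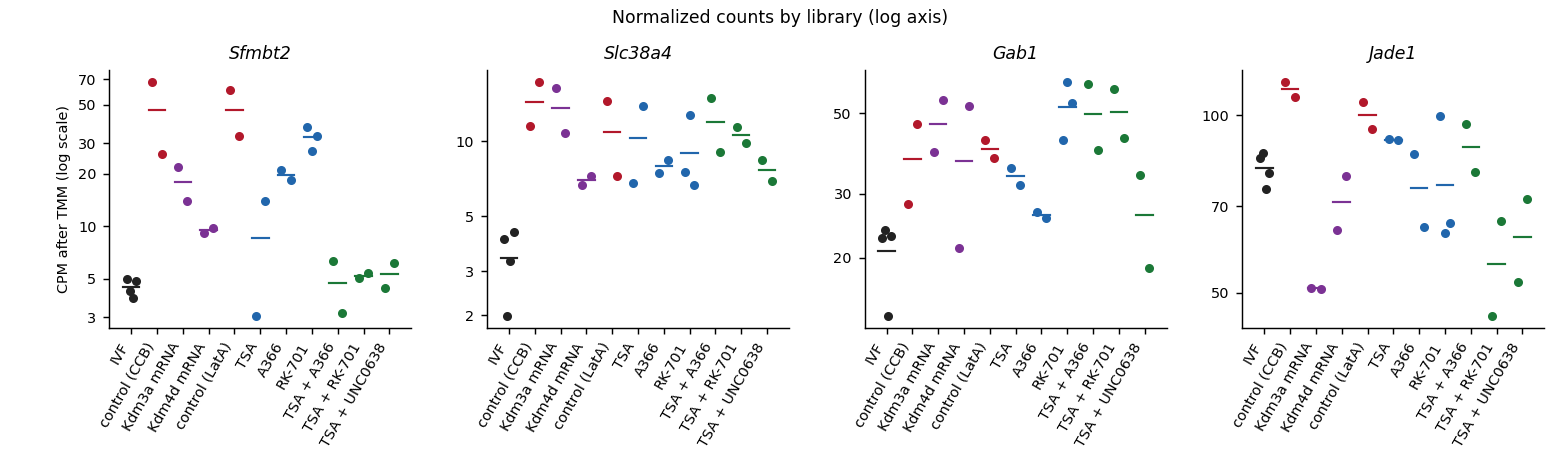
Normalized counts (CPM after TMM, log axis) of Sfmbt2, Slc38a4, Gab1 and Jade1 in each of the 25 libraries, by group. Points are libraries and short lines are group means, in black for IVF embryos, red for untreated SCNT controls, purple for mRNA injection, blue for 1 chemical agent and green for TSA with a G9a inhibitor. Sfmbt2 reaches 67.5 CPM in a control and lies between 3.18 and 6.29 CPM in the green groups, near the 3.89 to 4.96 CPM of IVF embryos, whereas every SCNT library of Slc38a4 lies above the 4 IVF libraries.

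Sfmbt2, a Polycomb group protein with MBT repeats that is needed for the trophoblast, was the member that varied most among the 4 well-counted genes, with group means that differed by 10.5-fold. The 4 IVF libraries held 4.96, 4.23, 3.89 and 4.81 CPM (mean 4.47 ± 0.501 SD). The SCNT control held 67.5 and 26.2 CPM and the CC control 60.3 and 33.0 CPM. Each control library was thus above every IVF library, and within each control 1 library held far more than the other. Both controls were 10.5-fold above IVF embryos (log2 fold change 3.39, SE 0.39, adjusted p = 5.14e-07 in the SCNT control and 5.48e-07 in the CC control, edgeR). Without SCNT control replicate 1, its high library, the log2 fold change of that control was 2.55 (adjusted p = 0.000289) and without replicate 2 it was 3.92, and in the CC control it was 2.89 and 3.76 without replicate 1 and 2, called each time. The difference between the controls had a 95% interval of -0.92 to 0.92 on the log2 scale.

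The 3 groups given TSA with a G9a inhibitor came down to the level of IVF embryos. CC_TG-A366 held 6.29 and 3.18 CPM, CC_TG-RK701 5.02 and 5.37, and CC_TG-UNC0638 4.39 and 6.18. The first and last of these groups overlapped IVF embryos, CC_TG-RK701 lay just above them, and all 6 libraries lay below both CC control libraries. Sfmbt2 fell by 3.30 on the log2 scale in CC_TG-A366 (SE 0.50, adjusted p = 0.000161), by 3.16 in CC_TG-RK701 (SE 0.50, adjusted p = 0.000253) and by 3.14 in CC_TG-UNC0638 (SE 0.50, adjusted p = 0.000193) against the CC control in edgeR. Against IVF embryos the log2 differences were 0.09 (95% interval -0.79 to 0.97), 0.23 (-0.65 to 1.10) and 0.25 (-0.62 to 1.13), none called, and the intervals reach past 2-fold for the last pair. Sfmbt2 was the only member called against the CC control in these groups, 1 of 7 in each, where 5.98%, 6.19% and 6.21% of all genes were called.

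TSA alone gave a split result for Sfmbt2, since CC_T held 3.05 CPM in replicate 1 and 14.0 CPM in replicate 2. The first lay below all IVF libraries and the second above them, and both lay below the CC control. Sfmbt2 fell by 2.44 on the log2 scale against the CC control (SE 0.48, adjusted p = 0.0219, edgeR), and it was the only member called there (0.318% of all genes called). Without CC_T replicate 1 the adjusted p was 0.259 (log2 difference -1.74), without CC control replicate 1 it was 0.151 and with only these 2 groups in the fit it was 0.127, while without CC_T replicate 2 the difference was -3.94 (adjusted p = 0.00471). Against IVF embryos the log2 difference was 0.95 (SE 0.41, adjusted p = 0.0997), and it was 1.65 without CC_T replicate 1 (adjusted p = 0.00687) and -0.57 without CC_T replicate 2 (adjusted p = 0.467), so that its sign depended on the library.

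The G9a inhibitors without TSA left Sfmbt2 above IVF embryos. CC_G-A366 held 21.0 and 18.3 CPM and CC_G-RK701 37.4, 26.9 and 33.1 CPM, all above the IVF range, with the 3 RK-701 libraries above both A366 libraries. The log2 difference from IVF embryos was 2.14 with A366 (SE 0.40, adjusted p = 0.000235) and 2.87 with RK-701 (SE 0.37, adjusted p = 1.99e-06), both called in edgeR. Against the CC control it was -1.25 with A366 (95% interval -2.19 to -0.31, adjusted p = 0.265) and -0.52 with RK-701 (-1.35 to 0.31, adjusted p = 0.506), neither called. With no filter on low counts the A366 difference had an adjusted p of 0.0318. No member was called against the CC control with either inhibitor alone in edgeR, with 1 of 7 at an unadjusted p under 0.05 for each, or in DESeq2, which gave an adjusted p for 4 of the 7, where 0.120% of all genes were called with A366 and 3.35% with RK-701.

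Because TSA and each of A366 and RK-701 were given alone and together, the departure of the combination from the sum of the single effects could be tested. For Sfmbt2 it was -0.20 on the log2 scale with RK-701 (95% interval -1.49 to 1.09) and 0.39 with A366 (-0.97 to 1.75), neither called. The intervals span more than 2-fold in both directions. A single member, the sparsely counted Rnls, was called in the RK-701 combination, where 2.14% of all genes were called, and none with A366 in edgeR, where 1.83% were (2 of 7 at an unadjusted p under 0.05), or among the 4 members to which DESeq2 gave an adjusted p.

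With demethylase mRNA Sfmbt2 lay between IVF embryos and the SCNT control. SCNT-Kdm3a held 21.9 and 13.9 CPM and SCNT-Kdm4d 9.20 and 9.75 CPM. All 4 libraries were above the IVF libraries and below both SCNT control libraries, and the Kdm4d libraries were below the Kdm3a libraries. With Kdm4d, Sfmbt2 fell by 2.30 on the log2 scale against the SCNT control (SE 0.48, adjusted p = 0.00525, edgeR), the only member called there (3.14% of all genes called). Its difference from IVF embryos was 1.09 (95% interval 0.25 to 1.93, adjusted p = 0.0747), a fold of 2.13 that was not called. Leaving out SCNT control replicate 1 raised the adjusted p of the fall with Kdm4d to 0.216 (log2 difference -1.48), and leaving out either Kdm4d library raised it to 0.0612 and 0.0703. With Kdm3a the log2 difference was 2.02 from IVF embryos (SE 0.40, adjusted p = 0.00053, called) and -1.38 from the SCNT control (95% interval -2.32 to -0.44, adjusted p = 0.0734, not called). DESeq2 called the latter (adjusted p = 0.0332), and so did edgeR without SCNT control replicate 2 (0.0182), without CC_T replicate 1 (0.0251) or without CC_T replicate 2 (0.0286), although CC_T enters only through the shared estimate of spread. Without SCNT control replicate 1, the high library, the difference was -0.56 (adjusted p = 0.666), and without SCNT-Kdm3a replicate 1 or 2 the adjusted p was 0.108 and 0.365. Leaving out either of those CC_T libraries also brought the difference of SCNT-Kdm4d from IVF embryos past the test (0.0257 and 0.0310).

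**Figure D2:**
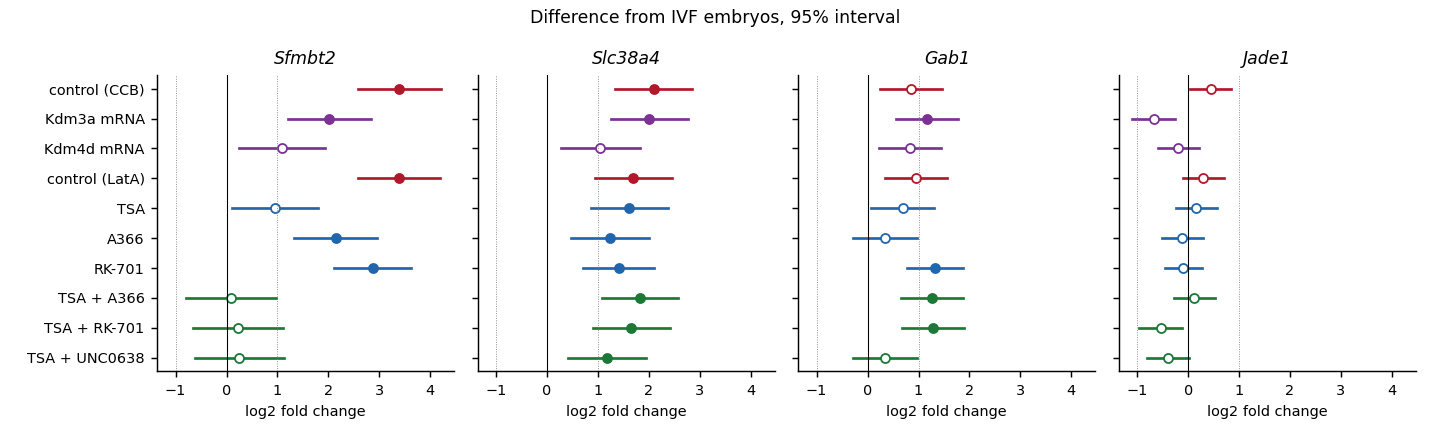
Log2 fold change from IVF embryos (horizontal axis) with its 95% interval for the 10 SCNT groups, for Sfmbt2, Slc38a4, Gab1 and Jade1. Filled points were called (adjusted p under 0.05 and fold over 2, edgeR), and dotted lines mark 2-fold. Sfmbt2 runs from 3.39 in both controls to between 0.09 and 0.25 in the 3 TSA and G9a inhibitor groups, while Slc38a4 stays between 1.04 and 2.09 in all 10 groups.

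In the order of the group means, Sfmbt2 was highest in the SCNT control, followed by the CC control, CC_G-RK701, CC_G-A366, SCNT-Kdm3a, SCNT-Kdm4d, CC_T, the 3 TSA and G9a inhibitor groups and IVF embryos. Libraries of neighbouring groups overlapped at 8 of the 10 steps. The steps without overlap were from CC_G-RK701 to CC_G-A366 and from SCNT-Kdm3a to SCNT-Kdm4d.

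Reads on repeat copies inside the Sfmbt2 gene were, like those on its exons, highest in both controls. The table holds 67 repeat copies within the gene, 41 of them with a read in some library, and their summed level was 0.310 to 0.648 CPM in IVF embryos. It was 5.33 and 9.01 CPM in the SCNT control and 11.6 and 3.54 CPM in the CC control. Every control library was above the IVF range, and within the SCNT control the library with fewer exon reads had more reads on the repeat copies. With Kdm3a it was 0.681 and 0.599 CPM and with Kdm4d 0.645 and 0.0701 CPM, while exon reads of Sfmbt2 in these groups still lay above IVF embryos. The groups given TSA and a G9a inhibitor held 0.203 to 0.784 CPM, within or near the IVF range. CC_T held 0 CPM in replicate 1, at a floor of 0.254 CPM for 3 read pairs, and 2.65 CPM in replicate 2, the same order as for exons. CC_G-A366 held 2.10 and 0.960 CPM, and CC_G-RK701 held 2.17, 1.44 and 1.28 CPM. These sums were not tested. Higher repeat reads in the controls than in IVF embryos were not particular to Sfmbt2. Copies inside Jade1 had means of 1.77 and 1.22 CPM in the SCNT and CC controls against 0.281 in IVF embryos. Inside Gab1 they were 13.3 and 18.0 against 6.25 CPM, although SCNT control replicate 1 held 4.65 CPM. Inside Rnls they were lower, at 1.02 and 0.931 against 3.10 CPM. Outside the gene, the RLTR11B copy on the minus strand upstream of Sfmbt2, on chromosome 2 from 10364991 to 10365462, had group means of 0.237 to 1.28 CPM and did not follow that order.

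**Figure D3:**
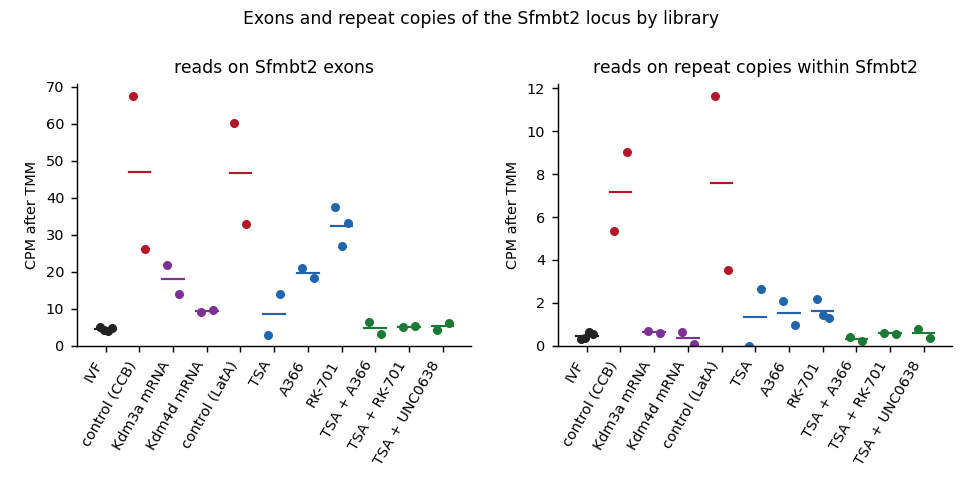
Normalized counts (CPM after TMM, linear axes) on Sfmbt2 exons (left) and summed over the 67 repeat copies within the gene (right) by library and group, with group means as lines. Both panels are highest in the red control groups. The purple mRNA groups are at 9.20 to 21.9 CPM on exons and at no more than 0.681 CPM on the repeat copies.

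Jade1, a PHD finger protein of a histone acetyltransferase complex, was the most strongly expressed member and was not called against IVF embryos in any group. The IVF libraries held 84.5, 86.3, 74.9 and 79.7 CPM (mean 81.4 ± 5.12 SD), the SCNT control 114 and 107 CPM and the CC control 105 and 94.9 CPM. Both controls were above the whole IVF range by a small margin, with log2 differences of 0.44 (95% interval 0.04 to 0.84, adjusted p = 0.108) and 0.30 (-0.10 to 0.70, adjusted p = 0.289), neither called. With Kdm3a mRNA Jade1 held 51.0 and 50.8 CPM, below every IVF and control library. It fell by 1.12 on the log2 scale against the SCNT control (SE 0.23, adjusted p = 0.00373, edgeR), the only member called in that comparison in edgeR, where 4.16% of all genes were called. Against the CC control instead, the difference was -0.98 (adjusted p = 0.00667), under 2-fold. Against IVF embryos it was -0.68 (SE 0.20, adjusted p = 0.0190), past the test but under 2-fold.

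With Kdm4d Jade1 held 63.8 and 78.7 CPM, which overlapped IVF embryos and lay below both SCNT control libraries (log2 difference from that control -0.63, adjusted p = 0.112). CC_T held 91.0 and 90.7 CPM, above all IVF libraries and below both CC control libraries. CC_G-A366 held 85.8 and 64.7 CPM and CC_G-RK701 99.6, 63.2 and 65.7 CPM, both overlapping IVF embryos. The groups given both agents differed among themselves, since CC_TG-A366 held 96.7 and 79.9 CPM, CC_TG-RK701 45.7 and 66.1 CPM and CC_TG-UNC0638 52.1 and 72.1 CPM. Both libraries of the last pair of groups lay below all IVF libraries. Against the CC control the log2 difference was -0.84 in CC_TG-RK701 (SE 0.23, adjusted p = 0.0185, under 2-fold) and -0.69 in CC_TG-UNC0638 (SE 0.23, adjusted p = 0.0580). Without CC_TG-RK701 replicate 2 the former was -1.13 (adjusted p = 0.0255) and called, and without replicate 1, the lower library, it was -0.60 (adjusted p = 0.240) and no longer past the test, as it was also not without CC control replicate 1 (0.0609). In the order of group means, only the steps from the SCNT control to the CC control and from there to CC_T were free of overlap.

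Gab1, an adaptor that couples growth factor receptors to the RAS and PI3K pathways and is needed in the placenta, was above IVF embryos in most SCNT groups and was not called against a control by any treatment. The IVF libraries held 22.6, 23.9, 13.8 and 22.9 CPM (mean 20.8 ± 4.70 SD), the third well under the others. The SCNT control held 28.1 and 46.6 CPM and the CC control 42.2 and 37.7 CPM, all above the IVF range. The log2 differences were 0.85 (SE 0.30, adjusted p = 0.0423) and 0.94 (SE 0.30, adjusted p = 0.0224), folds of 1.80 and 1.93 that stayed under the limit. Without SCNT control replicate 1 the first was 1.16 (adjusted p = 0.0325), and without IVF replicate 2 the second was 1.02 (adjusted p = 0.0258), both then called. The first was 0.44 (adjusted p = 0.480) without SCNT control replicate 2, and without IVF replicate 3, the low one, the 2 differences were 0.69 (0.123) and 0.79 (0.0739), so that neither passed the test. The second also missed it without CC control replicate 1 (0.107) or 2 (0.0610), and the first without IVF replicate 1 (0.0569) or 4 (0.0555).

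Under treatment the groups of Gab1 overlapped widely. CC_G-RK701 held 42.2, 61.1 and 53.3 CPM, CC_TG-A366 60.3 and 39.7, CC_TG-RK701 58.4 and 42.9, and SCNT-Kdm3a 39.2 and 54.4, all above the IVF range. These 4 groups were called above IVF embryos, with log2 differences of 1.33 (SE 0.27, adjusted p = 0.000613), 1.27 (SE 0.29, adjusted p = 0.00314), 1.28 (SE 0.29, adjusted p = 0.00241) and 1.17 (SE 0.29, adjusted p = 0.00543). The call was lost without CC_TG-A366 replicate 1 (adjusted p = 0.126), without CC_TG-RK701 replicate 1 (0.0713) and without SCNT-Kdm3a replicate 2 (0.114). CC_G-A366 at 26.8 and 25.7 CPM, CC_T at 35.3 and 31.7 CPM and CC_TG-UNC0638 at 33.8 and 18.8 CPM were lower, and the last overlapped IVF embryos, as did SCNT-Kdm4d with 21.2 and 52.6 CPM. Without its low replicate 1, SCNT-Kdm4d was called above IVF embryos (log2 difference 1.34, adjusted p = 0.00881), and without its high replicate 2 the difference was 0.03 (adjusted p = 0.988). The differences of Gab1 from IVF embryos were 0.34 in CC_G-A366 (95% interval -0.29 to 0.96), 0.34 in CC_TG-UNC0638 (-0.28 to 0.96), 0.69 in CC_T (0.07 to 1.30) and 0.83 in SCNT-Kdm4d (0.22 to 1.44), none called. Against their own control the differences of all 8 treated groups lay between -0.61 and 0.38. In the order of group means only the step from CC_G-A366 down to IVF embryos was free of overlap.

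Slc38a4, a transporter of neutral amino acids that is abundant in placenta and liver, stayed above IVF embryos under every treatment. The IVF libraries held 4.03, 1.99, 3.31 and 4.32 CPM (mean 3.41 ± 1.04 SD), the SCNT control 11.5 and 17.3 CPM and the CC control 14.4 and 7.26 CPM. No library of any of the 10 SCNT groups overlapped the IVF range, the lowest being 6.64 CPM in CC_G-RK701. The log2 difference from IVF embryos was 2.09 in the SCNT control (SE 0.37, adjusted p = 0.000129) and 1.69 in the CC control (SE 0.37, adjusted p = 0.00128), a rise of 4.27-fold and 3.23-fold. Without CC control replicate 1 the latter was 1.11 (adjusted p = 0.0846).

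With mRNA, Slc38a4 was at 16.3 and 10.8 CPM in SCNT-Kdm3a and at 6.70 and 7.22 CPM in SCNT-Kdm4d. The Kdm3a libraries overlapped those of the SCNT control, whereas both Kdm4d libraries lay below it. The log2 difference from IVF embryos was 2.01 with Kdm3a (SE 0.37, adjusted p = 0.000229, called) and 1.04 with Kdm4d (SE 0.38, adjusted p = 0.0638, not called). The latter was called without CC control replicate 1 or 2 (0.0453 and 0.0443). SCNT-Kdm4d was the treated group in which Slc38a4 was lowest, at a log2 difference of -1.05 from its control (95% interval -1.94 to -0.16, adjusted p = 0.175, not called). It was also the group in which no member was called against IVF embryos in edgeR (3 of 7 at an unadjusted p under 0.05) or DESeq2 (no adjusted p for Sall3), where 9.31% of all genes were called.

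In the chemical arm Slc38a4 was at 6.78 and 13.9 CPM in CC_T, 7.47 and 8.37 in CC_G-A366, 7.52, 12.7 and 6.64 in CC_G-RK701, 14.9 and 9.06 in CC_TG-A366, 11.4 and 9.84 in CC_TG-RK701 and 8.39 and 6.92 in CC_TG-UNC0638. All 6 groups overlapped the CC control, and their log2 differences from it lay between -0.51 and 0.13, none called. All 6 were called above IVF embryos, with log2 differences of 1.62 (adjusted p = 0.00196), 1.23 (0.0180), 1.40 (0.00344), 1.82 (0.000804), 1.65 (0.00190) and 1.18 (0.0317) in the same order. The CC_T call was lost without its replicate 2 (adjusted p = 0.163). The CC_G-A366 call was lost without IVF replicate 2 (0.0600) or either of its own libraries (0.0672 and 0.155), and the CC_TG-UNC0638 call without IVF replicate 2 (0.102) or 3 (0.0617) or either of its own (0.228 and 0.0814). In the order of group means, only the step from SCNT-Kdm4d down to IVF embryos was free of overlap.

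**Figure D4:**
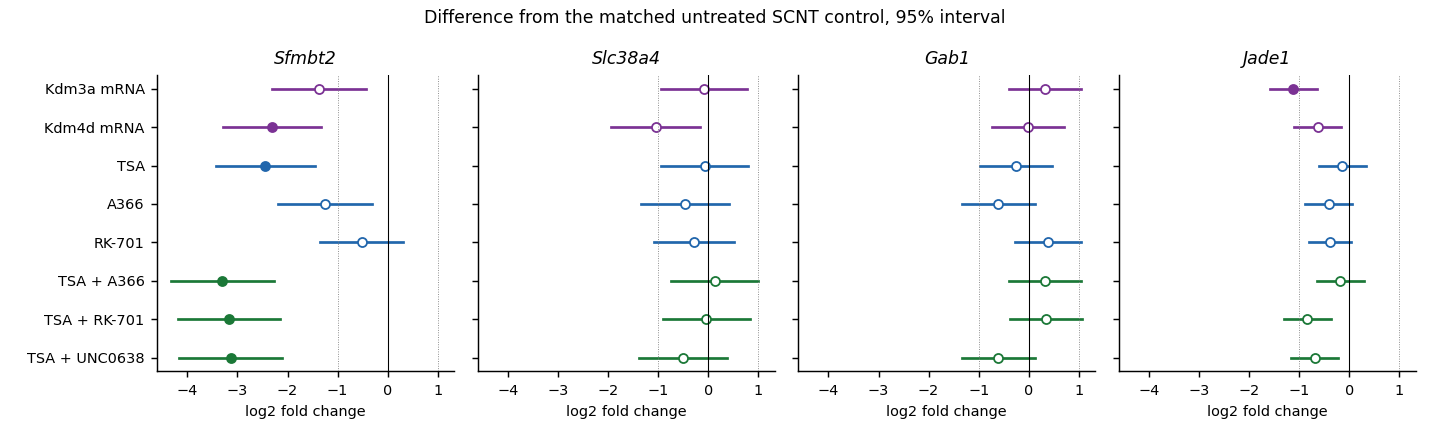
Log2 fold change from the untreated SCNT control of the same arm (horizontal axis) with its 95% interval for the 8 treated groups, for Sfmbt2, Slc38a4, Gab1 and Jade1. Filled points were called (adjusted p under 0.05 and fold over 2, edgeR), and dotted lines mark 2-fold. The filled points are Sfmbt2 with Kdm4d, TSA and the 3 combinations (-2.30 to -3.30) and Jade1 with Kdm3a (-1.12).

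Smoc1, a secreted calcium-binding protein of the extracellular matrix, was not called in any comparison. It had 0, 7, 0 and 1 read pairs in IVF embryos, 1 and 13 in the SCNT control and 14 and 25 in the CC control, so that only the CC control lay clear of IVF embryos among the controls (0.760 and 2.33 CPM, log2 difference 3.36, SE 1.40, adjusted p = 0.0882). Without IVF replicate 2 that difference was called (adjusted p = 0.0329), and so was the difference of CC_T from IVF embryos (0.0498). CC_T held 27 and 0 read pairs, SCNT-Kdm4d 1 and 16, CC_G-A366 8 and 19, CC_G-RK701 14, 2 and 7, CC_TG-A366 4 and 1, and CC_TG-RK701 1 and 17, so replicates of 1 group often differed by more than the groups did. SCNT-Kdm3a and CC_TG-UNC0638 held no Smoc1 read in either library. Against a floor of 3 read pairs per library, Smoc1 was at least 6.77-fold lower in CC_TG-UNC0638 than in the CC control (adjusted p = 0.0680 in edgeR, and 0.0267 in DESeq2), a bound that is 10.2-fold without CC control replicate 1 and 3.33-fold without replicate 2. SCNT-Kdm3a had an adjusted p of 0.169 against the SCNT control and is given no bound, since 13 of the reads of that control were in replicate 2 and 1 was in replicate 1. Without CC control replicate 1, CC_T replicate 1 or CC_T replicate 2 the difference of CC_TG-UNC0638 was called in edgeR as well (adjusted p = 0.0480, 0.0446 and 0.0427).

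Rnls encodes renalase, a flavoprotein oxidase. It had 4, 9, 8 and 19 read pairs in IVF embryos, 4 and 13 in the SCNT control and 8 and 2 in the CC control. In CPM the SCNT control overlapped IVF embryos, whereas the CC control lay below them. CC_T with 17 and 18 read pairs had the highest group mean at 1.32 ± 0.177 CPM, and CC_G-A366 had 10 and 9 and CC_G-RK701 19, 3 and 10. SCNT-Kdm3a had 6 and 11, SCNT-Kdm4d 6 and 0, CC_TG-A366 5 and 1 and CC_TG-UNC0638 1 and 7. CC_TG-RK701 had none in either library. Against a floor of 3 read pairs per library, Rnls was there at least 3.43-fold lower than in IVF embryos (adjusted p = 0.0145, edgeR, called). That bound is 2.57-fold without IVF replicate 4, the library with 19 read pairs, and 3.63-fold to 3.78-fold without any other IVF library. The call was lost without either CC_TG-RK701 library (adjusted p = 0.107 and 0.130). Rnls was therefore in no SCNT group called above IVF embryos and in 1 called below.

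Sall3, a zinc finger transcription factor of the Spalt family, was near the detection limit. IVF embryos held 2, 38, 2 and 2 read pairs, of which 1 library stood far above the rest, and no other library held more than 9. The SCNT control held 3 and 5, the CC control 0 and 7, CC_G-A366 0 and 7, CC_TG-A366 0 and 9, CC_TG-RK701 1 and 2, CC_T 0 and 2 and SCNT-Kdm4d 1 and 0. CC_G-RK701, SCNT-Kdm3a and CC_TG-UNC0638 held none. CC_G-RK701 was called below IVF embryos (adjusted p = 0.0461, edgeR), a call that rested on IVF replicate 2 and was lost without it (adjusted p = 0.197), so no fold is given. It was lost on leaving out each of 9 of the 25 libraries in turn, with adjusted p up to 0.197.

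**Figure D5:**
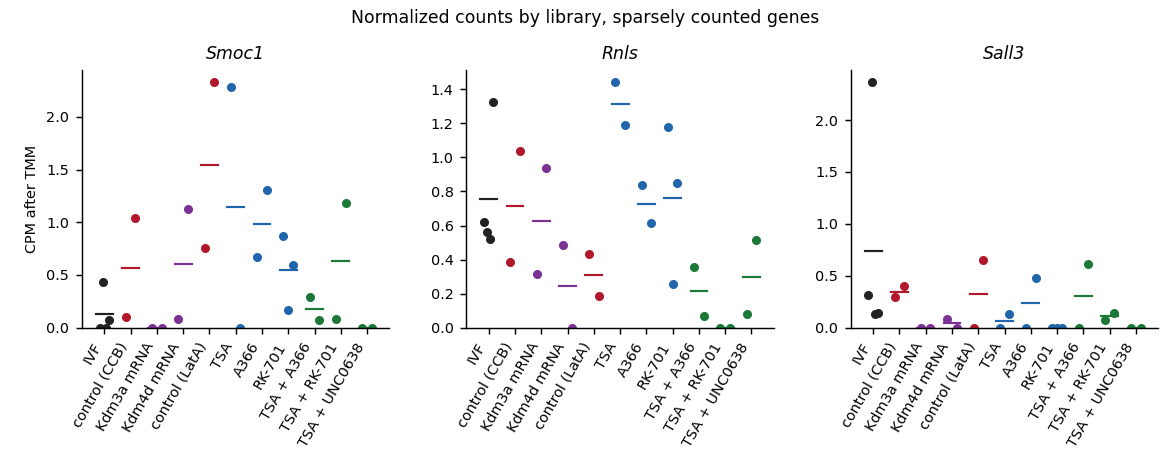
Normalized counts (CPM after TMM, linear axes) of the sparsely counted Smoc1, Rnls and Sall3 by library and group, with group means as lines. Sall3 is above 0.7 CPM in a single library, IVF replicate 2 at 2.36 CPM, and Rnls is at 0 in both TSA and RK-701 libraries.

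Counted over groups, members called against IVF embryos were 1 in CC_T (14.9% of all genes called), 3 in SCNT-Kdm3a (12.8%), 2 in CC_G-A366 (15.2%), 4 in CC_G-RK701 (11.8%), 2 in CC_TG-A366 (10.9%), 3 in CC_TG-RK701 (12.2%) and 1 in CC_TG-UNC0638 (9.84%). With SCNT-Kdm4d, at 0, this made 16 of the 56 tests of the 8 treated groups, 14 higher and 2 lower than IVF embryos. The median log2 fold change of the 7 members from IVF embryos lay between -0.39 in CC_TG-UNC0638 and 1.33 in CC_G-RK701. Slc38a4 gave 7 of them, Gab1 4, Sfmbt2 3 and Rnls and Sall3 1 each. Against the own control 6 of 56 tests were called, all lower, of which Sfmbt2 gave 5 and Jade1 gave 1. The share of all genes called against the own control ran from 0.120% in CC_G-A366 to 6.21% in CC_TG-UNC0638. Thus Sfmbt2 was the single member called above IVF embryos in the controls that was also called below its control after treatment. These treated groups were CC_T, SCNT-Kdm4d and the 3 TSA and G9a inhibitor groups, and in none was Sfmbt2 called against IVF embryos. In SCNT-Kdm4d it was still 2.13-fold above IVF embryos (adjusted p = 0.0747, edgeR), with both libraries above every IVF library. CC_T was split between 3.05 CPM, below every IVF library, and 14.0 CPM, above them. The 3 TSA and G9a inhibitor groups lay at 3.18 to 6.29 CPM, near the 3.89 to 4.96 CPM of IVF embryos. Slc38a4, the other member raised in both controls, was not called against its control under any treatment.

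The 3 G9a inhibitors were compared at the same dose and time in 4 pairs, which gave 28 tests over the members. None was called in edgeR, while 8 had an unadjusted p under 0.05. DESeq2 called 1, Gab1 between A366 and RK-701, as did edgeR without SCNT control replicate 1 (adjusted p = 0.0321), CC_T replicate 2 (0.0412) or CC_G-RK701 replicate 1 (0.0440). Without TSA, Gab1 was lower with A366 (26.8 and 25.7 CPM) than with RK-701 (42.2, 61.1 and 53.3 CPM), with no overlap. The log2 difference was -0.99 (95% interval -1.67 to -0.32, adjusted p = 0.0451, edgeR), at the limit of 2-fold, where 8.08% of all genes were called. With TSA the same pair differed in Gab1 by -0.02 (-0.73 to 0.69), where 0% of all genes were called. UNC0638 with TSA gave less Gab1 than RK-701 with TSA (log2 difference -0.95, -1.67 to -0.22, adjusted p = 0.261, with 0.946% of all genes called) or A366 with TSA (-0.93, -1.65 to -0.20, adjusted p = 0.313, with 0.849%), neither past the test. For Sfmbt2 the differences among the 3 combinations were -0.14, 0.03 and 0.16, with 95% intervals that reached no further than 1.17 in either direction, and for Slc38a4 0.17, -0.47 and -0.64. Without TSA, A366 and RK-701 differed by -0.73 in Sfmbt2 (-1.59 to 0.14) and by -0.17 in Slc38a4 (-0.98 to 0.64).

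Genes of the Polycomb complexes and the enzymes that reverse their marks (11 of PRC2, 19 of PRC1, the H3K27 demethylase Kdm6b and the H2AK119 deubiquitinase Bap1, 32 in all and all tested) were counted beside the members. The list was chosen with earlier results of these data known. Against IVF embryos 1 of 32 was called higher and 3 lower in the SCNT control, and 1 higher and 2 lower in the CC control, where 15.0% and 15.3% of all genes were called, with a median log2 fold change of -0.02 and 0.06 against 0.01 and 0.04 over all genes. Mtf2, a PRC2 partner that helps recruit the complex, was lower in both, from 1092 CPM in IVF embryos to 527 and 461 CPM (log2 difference -1.05 and -1.24). In CC_TG-A366 and CC_TG-RK701, where Sfmbt2 was also at the IVF level, Mtf2 was at 942 and 990 CPM, above the CC control by 1.03 and 1.10 on the log2 scale (adjusted p = 0.00257 and 0.00134, edgeR). In CC_TG-UNC0638 it was at 907 CPM and not called against the CC control. Its libraries there (856 to 957 CPM) still lay above both CC control libraries (377 to 545 CPM). Mtf2 did not follow Sfmbt2 in every group, since with Kdm3a and Kdm4d it was at 854 and 849 CPM and not called against IVF embryos, while Sfmbt2 lay above all IVF libraries. In CC_T, where Sfmbt2 was called below its control, Mtf2 was at 465 CPM and called below IVF embryos. Cbx7, a reader of H3K27me3 in PRC1, was lower than in IVF embryos in all 10 SCNT groups, from 10.7 CPM to between 0.964 and 2.62 CPM. Phc3, a Polyhomeotic protein of PRC1, was at 2.19 CPM in IVF embryos and called higher in 8 of the 10, with 14.3 CPM in the SCNT control. Pcgf1, of a variant PRC1, was called above the own control in SCNT-Kdm3a, SCNT-Kdm4d and the 3 combinations, by 1.08 to 1.48 on the log2 scale. Against the own control the list gave 0 of 32 in CC_T and CC_G-A366 and 2 to 4 of 32 in the other groups, where 0.318% and 0.120% of all genes were called in the first pair and 3.14% to 6.21% in the others.

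Over the 11 group means of log2(CPM + 1), the genes most like Sfmbt2 among 10175 candidates of at least 5 CPM were Agap1 (Pearson r = 0.956), Ppip5k1 (0.939) and Chd1l (0.932). For Gab1 they were Spag9 (0.937), Tmem116 (0.936) and Zfp59 (0.934), and for Slc38a4 Gm16302 (0.946), Prmt9 (0.930) and Zdhhc17 (0.927). Jade1 was most like Osbpl1a (0.928), Bphl (0.912) and F2r (0.866). No gene was named for more than 1 of these 4 members. The correlations describe 11 points that come from the same libraries and carry no test.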

How the data were processed

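Poly(A) RNA of 25 pools of embryos in 11 groups was made into SMART-Seq HT libraries and sequenced by the authors. The deposited table holds raw counts of read pairs, which the authors obtained by trimming (Trimmomatic), alignment of uniquely mapping reads to mm10 (STAR) and counting on exons without regard to strand (featureCounts 1.6.2, per the file header), with pairs that overlap several features not counted. Genes carry Ensembl identifiers, and 55134 of 55375 were given a symbol from the GENCODE M21 annotation. Samples were grouped by their titles.

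Genes on autosomes whose mean count was 1 read pair or more were fitted in 1 model over all libraries with edgeR 4.0.16 (R 4.3.3; TMM factors, glmQLFit and glmQLFTest, Benjamini-Hochberg adjustment over 25794 genes), and the TMM factors were 0.883 to 1.16. Called means an adjusted p under 0.05 and a fold over 2. Intervals are 95% intervals of the fitted log2 fold change. Alternatives were DESeq2 1.42.0, RLE factors, other filters, the sex chromosomes, the compared libraries alone, a replicate block, the other or both controls, the adjusted p alone and each library left out. Named genes were all 7 members, called genes of the Polycomb list and, for each member, the 3 genes most like it. Members and lists were chosen with earlier results of these data known. Genes measured at 0 were set against a floor of 3 read pairs per library. There are no molecular identifiers, so floors cover counting error only. All 18 pairs of replicates differed by more than counting noise (chi-square per degree of freedom at least 7.34). The fit was tested on simulated data. The labels give the mRNA at 1500 ng per µL, and the study's methods give another unit. Labels and headers give no batch or date.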

Additional observations from a re-analysis of the deposited data

Results flagged for a closer look

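For 4 of the 7 members, 1 of the 4 IVF libraries stood apart from the other 3 by more than Dixon's critical ratio of 0.829, where chance marks about 1 in 20 groups. Gab1 was at 13.8 CPM in IVF replicate 3 (ratio 0.877), against 22.6 to 23.9 CPM in the others. Smoc1 was at 0.435 CPM in IVF replicate 2 (0.840), which is 7 read pairs against 0, 0 and 1. Rnls was at 1.32 CPM in IVF replicate 4 (0.874), which is 19 read pairs against 4, 9 and 8. Sall3 was at 2.36 CPM in IVF replicate 2 (0.919), which is 38 read pairs against 2 in each of the others. The 4 values come from 3 different libraries, and 3 of the 4 genes are those counted with few reads.

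The effect of TSA on Rnls differed with and without RK-701. Rnls had 8 and 2 read pairs in the CC control, 17 and 18 in CC_T, 19, 3 and 10 in CC_G-RK701 and 0 in both CC_TG-RK701 libraries. The interaction was -8.40 on the log2 scale (adjusted p = 0.0431, edgeR), a fitted value that depends on the libraries at 0 and is no measure of size. It was lost on leaving out each of 14 of the 25 libraries in turn (the 4 IVF libraries, both of the CC control, CC_T, CC_G-A366 and CC_TG-RK701, and CC_G-RK701 replicates 1 and 3), with adjusted p from 0.0329 to 0.248 over all 25.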

How the results depend on the processing

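Members called against IVF embryos were 2 of 7 in the SCNT control, 2 to 3 when 1 library was left out, and 2 of 7 in the CC control, 1 to 4 when 1 library was left out (1 without CC control replicate 1, 4 without IVF replicate 2). The 16 calls of the 8 treated groups against IVF embryos became 12 with the replicate block, 20 with only the compared libraries, 15 with DESeq2, which gave no adjusted p for Sall3 in CC_G-RK701, and 13 to 18 when 1 library was left out. The 6 calls against the own control became 5 with the replicate block, 8 with DESeq2, 9 with no filter, 8 with both controls together and 5 to 8 when 1 library was left out. The TSA interaction, called for 1 member, was called for 0 with DESeq2, which gave no adjusted p for Rnls, 0 with the replicate block, 0 with only the compared libraries and 0 to 1 when 1 library was left out. Between inhibitors, 0 members were called in edgeR and 1 (Gab1, A366 against RK-701) with the adjusted p alone, with DESeq2, with RLE factors and with only the compared libraries, and 0 to 1 when 1 library was left out. No member was called between the controls under any alternative run.

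Replicate numbers did not pair the libraries: over 55 pairs of groups the deviations of same-numbered libraries correlated from -0.322 to 0.165 (median -0.00771), 1 of them over 0.1. With the replicate block Slc38a4 in CC_G-A366 (adjusted p = 0.0579) and CC_TG-UNC0638 (0.0918), Rnls in CC_TG-RK701 (0.0531) and Sall3 in CC_G-RK701 (0.0687) were no longer called against IVF embryos, nor Sfmbt2 in CC_T against its control (0.0551).

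There were 1615 alternatives to the single log2 fold changes from IVF embryos and own controls. Of these, 1559 left it unchanged whether the difference was called, 31 lost the call, 25 gained it and 0 reversed a called direction. Among the 1559, 83 changed the sign of a difference that was not called. The cause of these changes was not tested. Groups of 2 libraries limit every comparison, and at 3 read pairs the floor was 0.157 to 0.465 CPM, which limits Smoc1, Rnls and Sall3.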
